A study of Mus musculus with 2 samples.

Results

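The clustered protocadherin genes were examined for histone H3 lysine 4 monomethylation (H3K4me1) in mouse embryonic stem cells. Members were all protein-coding genes of mm10 chromosome 18 whose RefSeq symbols name a protocadherin of the alpha, beta or gamma cluster. The rule took 57 of the 21568 protein-coding genes measured, with 14 in the alpha, 22 in the beta and 21 in the gamma cluster. Chromatin had been immunoprecipitated from E14TG2a.4, a male embryonic stem cell line of strain 129/Ola derived from an embryo of 3.5 days, in 2 biological replicates that formed 1 group. Both replicates came from the same line and donor, and no input or other control sample was analysed here, so the spread between them is that of 2 cultures of 1 line.

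Clustered protocadherins are cell adhesion molecules of the cadherin superfamily that give single neurons distinct surface identities. In the alpha and gamma clusters each variable first exon has its own promoter and is spliced to constant exons at the end of the cluster, whereas beta genes are coded by single exons. Neurons choose among the alternate promoters at random, and CTCF and cohesin bind most of these promoters and connect them to enhancers that lie in and beyond the clusters. The last genes of the alpha and gamma clusters, called C-type, are used more uniformly than the alternate ones. H3K4me1 is a mark of enhancers and of the flanks of promoters. It does not report transcription, which was not measured here.

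Coverage, the measure given for each gene, is the share of sequence inside H3K4me1 peaks within 5 kb of its transcription start site (TSS) in either direction, in percent, read from the deposited list of each replicate by itself. The lists held 313431 intervals in replicate 1 and 325200 in replicate 2, and covered 7.74% and 7.89% of the genome. No read counts were given, so the depth behind these values is unknown. Of the embryonic stem cell markers listed, all 10 lay above the median of all genes, with coverage from 23.0% at Esrrb to 67.7% at Dppa5a. The 8 fibroblast markers had a median of 43.9%, beside 46.6% for the stem cell markers, and ranged from 0% at Col3a1 and Dcn to 72.8% at Fn1. In each replicate list 6 of these 8 (75%) had a peak within 2 kb of the TSS. This was near the share of all genes, 74.3% in replicate 1 and 73.2% in replicate 2. Above the median of all genes lay 5 of the 8, so the lists overlapped in coverage.

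Coverage at the clustered protocadherins was low but rarely absent. Median coverage of the 57 members was 15.0% in replicate 1 and 8.35% in replicate 2, against medians of 22.3% and 19.8% over all genes. Averaged over the replicates, the member median was 11.7% ± 4.68 (SD of the replicate medians, n = 2) and that of all genes was 21.1% ± 1.73. Above the median of all genes were 12 members, of which 11 belonged to the gamma cluster, 1 to the beta cluster and 0 to the alpha cluster. In contrast, the count of genes with no covered base in either replicate was 1 of 57 members, Pcdha8, against 21.6% of all genes. Among the other genes of chromosome 18 this share was 11.0%. Windows overlapped in 41 of 56 pairs of neighbouring members, so 1 peak could count for more than 1 member. Most members thus had some coverage, but less of it than a typical gene, and the plot of coverage by member shows how the values were spread.

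**Figure D1:**
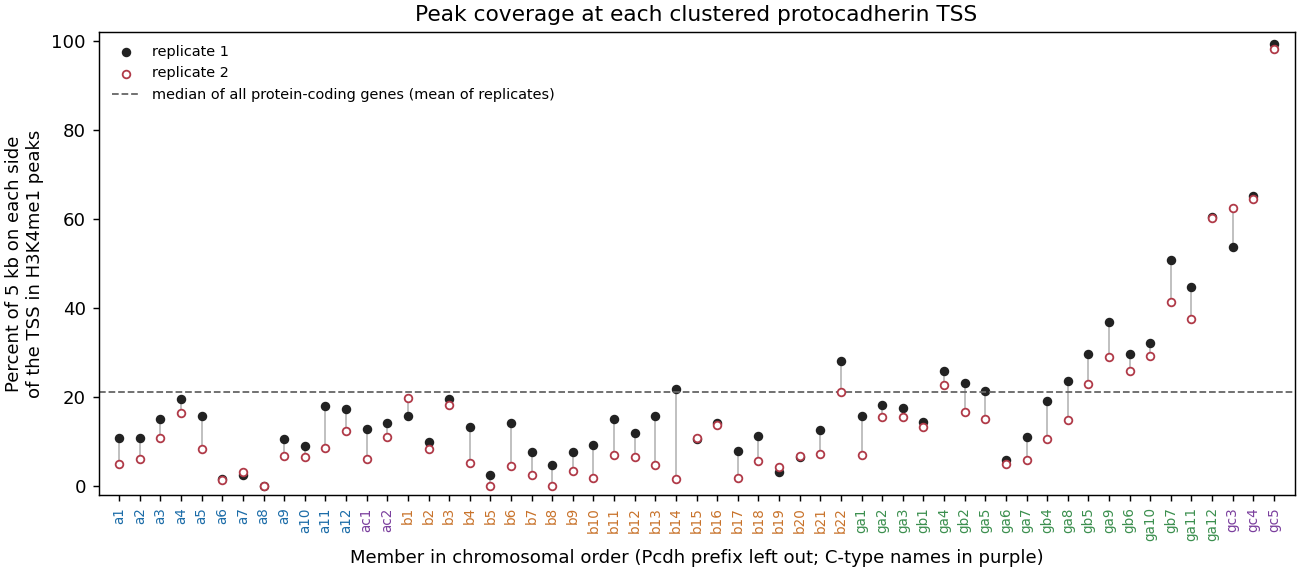
Coverage within 5 kb of the TSS in each direction (percent, y axis) for each of the 57 members in chromosomal order (x axis), with replicate 1 as filled points, replicate 2 as open points and the median of all protein-coding genes, 21.1%, as a dashed line. Alpha and beta members lie mostly below the line, and gamma members climb from left to right to 99.5% and 98.1% at Pcdhgc5.

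The alpha cluster had a median coverage of 11.7% in replicate 1 and 6.51% in replicate 2. Its highest member was Pcdha4, with 19.5% in replicate 1 and 16.4% in replicate 2. Pcdha12 followed with 17.3% and 12.3%, Pcdha11 with 18% and 8.54%, and Pcdha3 with 15.0% and 10.8%. All 4 are alternate alpha genes, each supplying a variable extracellular region, and all 4 were below the median of all genes in each replicate. The first gene of the cluster, Pcdha1, had 10.8% in replicate 1 and 4.8% in replicate 2. Pcdha6 and Pcdha8 were the lowest, at 1.58% and 1.24% for Pcdha6 and at 0% in both replicates for Pcdha8. The peak of the replicated list nearest to the Pcdha8 TSS was 7169 bp away. Among the C-type genes Pcdhac1 had 12.7% in replicate 1 and 6.08% in replicate 2, and Pcdhac2 had 14.2% and 10.9%, both within the range of the 12 alternate genes in each replicate. Their means of 9.38% and 12.5% were above the alternate median of 8.46%, at places 7 and 5 among the 14 alpha members.

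Beta members had a median coverage of 11.6% in replicate 1 and 5.29% in replicate 2. Pcdhb22, the last gene of the cluster, had 28.1% in replicate 1 and 21.0% in replicate 2. Pcdhb3 had 19.6% and 18.3%, the first gene Pcdhb1 had 15.8% and 19.8%, and Pcdhb16 had 14% and 13.7%. Of the beta genes Pcdhb22 alone had a mean above the median of all genes, at 24.5% ± 4.99 (SD, n = 2). Pcdhb5 and Pcdhb8 were the lowest, each with 0% in replicate 2 and with 2.45% and 4.66% in replicate 1. Pcdhb14 differed most between replicates of all members, with 21.8% in replicate 1 and 1.60% in replicate 2.

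The gamma cluster had a median coverage of 25.8% in replicate 1 and 22.6% in replicate 2, above the median of all genes in both. Its first gene, Pcdhga1, had 15.8% in replicate 1 and 6.82% in replicate 2. Its lowest members, Pcdhga6 and Pcdhga7, had 5.76% and 11.0% in replicate 1 and 4.88% and 5.79% in replicate 2. Coverage tended to be higher for genes nearer the constant exons. Pcdhga12, the last of the alternate genes, had 60.5% in replicate 1 and 60.2% in replicate 2. Over the 18 gamma A and B genes the Spearman correlation of coverage with order along the chromosome was 0.798 in replicate 1 and 0.697 in replicate 2. The same correlation was 0.068 and 0.244 over the 14 alpha members and −0.012 and 0.099 over the 22 beta members. These are descriptions without a test, because the windows of neighbouring members overlap in 18 of 20 gamma pairs, 10 of 13 alpha pairs and 13 of 21 beta pairs. When each gamma gene was instead given only the stretch from its own TSS to the next, which no 2 genes share, the correlation over the 18 genes was 0.573 in replicate 1 and 0.692 in replicate 2.

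The 3 C-type genes at the end of the gamma cluster carried the highest coverage of the family together with Pcdhga12. Pcdhgc3 had 53.7% in replicate 1 and 62.5% in replicate 2, and Pcdhgc4 had 65.1% and 64.6%. Pcdhgc5, the last gene of the family, had 99.5% in replicate 1 and 98.1% in replicate 2, a mean of 98.8% ± 0.94 (SD, n = 2). This was the highest mean of all 21568 genes, with Nphs1, which codes for nephrin of the kidney filter, next at 98.6% ± 1.24, so that the order of these neighbours was within the spread of the replicates. The rank depended on the window. With 2 kb on each side Pcdhgc5 had 97.9% and ranked 32, and with 20 kb on each side it had 77.3% and ranked 118. The same replicates gave Pcdhac2, the last C-type gene of the alpha cluster, a mean of 12.5% ± 2.35 and rank 13470. The interval over the Pcdhgc5 TSS in the replicated list was chr18:37818583-37826130 (mm10), 7548 bp wide, with the authors' signal value of 12.3 at percentile 99.6 of that list.

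A promoter peak was called where a peak of the replicated list, which the authors derived from both replicate lists and the pooled list, overlapped the 2 kb on each side of the TSS. It was present at 50 of 57 members (87.7%), against 72.8% of all genes and 84.2% of the other genes of chromosome 18. All 21 gamma, 12 of 14 alpha and 17 of 22 beta members had one. The members without one were Pcdha6, Pcdha8, Pcdhb5, Pcdhb8, Pcdhb14, Pcdhb17 and Pcdhb19. Pcdhb17 had 7.73% coverage in replicate 1 and 1.83% in replicate 2, and Pcdhb19 had 3.10% and 4.32%. The nearest peaks of the replicated list were 2214 bp after the Pcdhb17 TSS and 2227 bp after that of Pcdhb19, just outside the 2 kb. The peak nearest to the Pcdhb14 TSS lay 2727 bp before it and was centred 1951 bp after the Pcdhb13 TSS. In the list of replicate 1 the count was 53 members, against 74.3% of all genes. In that of replicate 2 it was 47, against 73.2%, and in the list from pooled replicates 53, against 74.8%. With 1 kb on each side the order was the other way round, at 33 members (57.9%) against 69.4% of all genes. Among the 50000 peaks of highest signal value in the replicated list, only 9 members (15.8%) kept a promoter peak, against 40.3% of all genes. Of those 9, 8 were gamma genes and the other was Pcdhb22.

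Peaks at the members stood at characteristic distances from the TSS. Around an average gene, coverage formed 2 shoulders with a dip at the TSS and was highest 1000 to 1250 bp after it, at 45.4% in replicate 1 and 40.6% in replicate 2. At the alternate alpha genes the shoulder before the TSS was missing, and at the beta and gamma A and B genes it was reduced. In the stretch from 2000 to 250 bp before the TSS, 0 of 12 alternate alpha genes had a covered base in replicate 1 and 0 in replicate 2, against 64.5% and 62.4% of all genes. Of the 22 beta genes, 2 had one there in each replicate. Of the 18 gamma A and B genes, 5 had one in replicate 1 and 6 in replicate 2. Beyond 1000 bp before the TSS, gamma A and B genes averaged 26.6% in replicate 1 and 22.0% in replicate 2, against 20.7% and 19.9% of all genes. The C-type genes did not share the pattern, with 5 of 5 in replicate 1 and 4 of 5 in replicate 2.

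**Figure D2:**
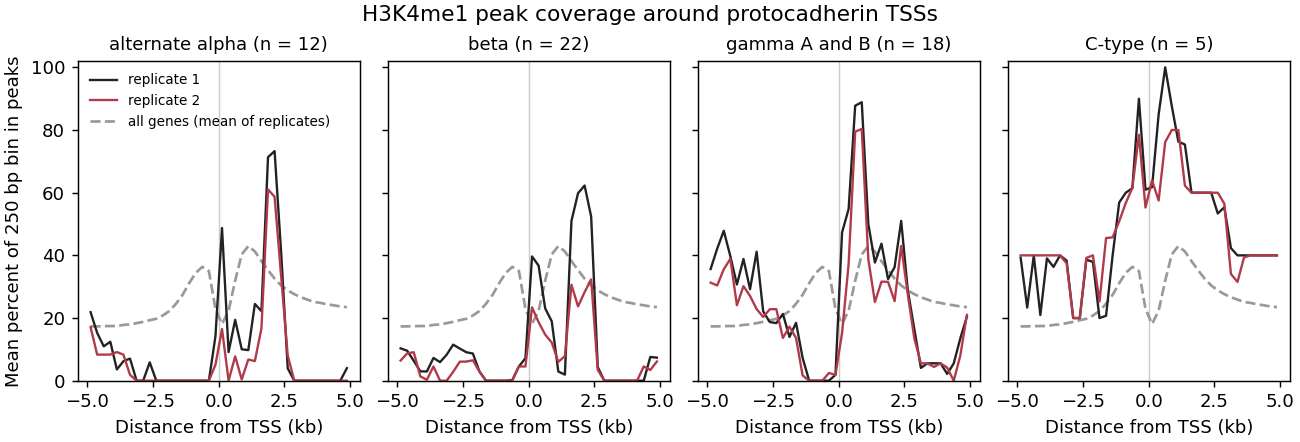
Mean percent of each 250 bp bin in peaks (y axis) by distance from the TSS in kb (x axis) for alternate alpha, beta, gamma A and B and C-type genes, with replicate 1 in black, replicate 2 in red and all protein-coding genes as a dashed grey line. Alternate alpha and beta genes peak near 2 kb after the TSS and gamma A and B genes between 500 and 1000 bp after it, and all 3 classes have less coverage than all genes from 2000 to 250 bp before the TSS.

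After the TSS, coverage was highest nearer to it in the gamma A and B genes than in the alternate alpha and beta genes. The highest bin of the alternate alpha genes was 2000 to 2250 bp after the TSS in replicate 1, at 73.3%, and 1750 to 2000 bp in replicate 2, at 61.0%. Beta genes had theirs at 2000 to 2250 bp in replicate 1, at 62.3%, and at 2250 to 2500 bp in replicate 2, at 32.3%. In the gamma A and B genes it was 750 to 1000 bp after the TSS in both replicates, at 88.9% and 80.3%. In that bin, picked as the highest of these genes, 17 of the 18 had a covered base in each replicate. Of all 21568 genes, 11467 had one there in replicate 1 and 10215 in replicate 2. The alpha peaks lay close to the far end of the first exon, whose median length in mm9 gene models was 2394 bp for the 10 alpha genes that could be matched. In the replicated list a covered base from 1500 to 2500 bp after the TSS was found at 9 of 12 alternate alpha and 19 of 22 beta genes, against 54.5% of all genes. It was also found there at 12 of 18 gamma A and B genes (66.7%). From 500 to 1500 bp it was found at 17 of 18 gamma A and B genes, against 64.2% of all genes. There it was found at 3 of 12 alternate alpha (25%) and 7 of 22 beta genes (31.8%). These stretches contain the highest bins given above, so the counts are no separate support for those positions.

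In the first 500 bp after the TSS, the replicated list had a covered base at 4 of 12 alternate alpha (33.3%) and 6 of 22 beta genes (27.3%), against 38.3% of all genes. It had one at 17 of 18 gamma A and B genes, where coverage increased without a break from the TSS to the highest bin. The single lists differed for each of these classes. In replicate 1 the counts were 8 alternate alpha (66.7%) and 12 beta genes (54.5%), against 40.8% of all genes. In replicate 2 they were 3 (25%) and 6 (27.3%), against 31.9%. Of the gamma A and B genes, 15 (83.3%) had a covered base there in replicate 1 and 13 (72.2%) in replicate 2. In the first 250 bp the alternate alpha genes averaged 48.7% in replicate 1 and 16.5% in replicate 2, and the beta genes 39.7% and 23.4%. Both classes were above the 20.7% and 15.5% of all genes. The gamma A and B genes averaged 47.3% there in replicate 1 but 15.2% in replicate 2, near the value of all genes. Beyond 3000 bp after the TSS coverage was 0.5% and 0% at alternate alpha genes, 1.87% and 1.77% at beta genes and 7.81% and 6.79% at gamma A and B genes, against 24.7% and 24.9% at all genes. Coverage was higher after than before the TSS in both replicates at 39 of 57 members, against 45.4% of all genes, and lower after it in both at 5 members (8.77%), against 22.5% of all genes.

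Along the chromosome the 3 clusters differed in level. The gamma cluster (chr18:37656775-37841873) was covered to 37.2% in replicate 1 and 36.6% in replicate 2. The alpha cluster (chr18:36925285-37188897) was covered to 7.79% and 6.11%, and the beta cluster (chr18:37259998-37521419) to 7.68% and 4.43%. The genome as a whole was at 7.74% and 7.89%, so the alpha and beta clusters stood near or below the genome and the gamma cluster well above it. In these totals the replicates of the gamma cluster differed by less than those of the alpha and beta clusters. The SDs were 0.39, 1.19 and 2.30 percentage points for gamma, alpha and beta (n = 2). Within the gamma cluster, single 10 kb bins differed in both directions, as with 31.4% against 22.8% and 16.8% against 31.3% in replicates 1 and 2. By member, the median of replicate 1 minus replicate 2 was 3.7 points in gamma, 4.02 in alpha and 5.3 in beta. In 10 kb bins, 13 of 26 alpha bins and 6 of 27 beta bins had no covered base in either replicate. None of the 19 gamma bins was empty in both replicates, and 6 of them were over 50%.

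**Figure D3:**
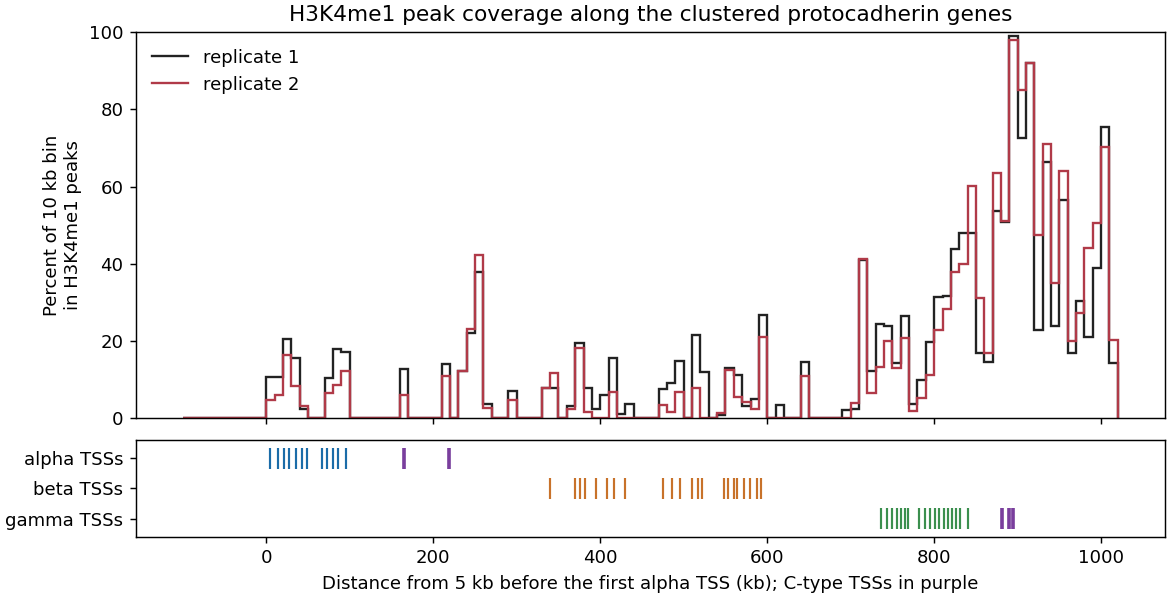
Percent of each 10 kb bin in peaks (y axis) along the alpha, beta and gamma clusters and 100 kb on each side, by distance in kb from a point 5 kb before the first alpha TSS (x axis), with replicate 1 in black and replicate 2 in red. Marks in the lower panel are TSSs of the members, with C-type genes in purple. Coverage is 0 before the alpha cluster, averages at most 40.1% in any bin of the alpha cluster and 23.8% in any of the beta cluster, and reaches 98.5% at the end of the gamma cluster.

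Most peaks of the alpha and beta clusters stood shortly after a member TSS. The replicated list had 24 peaks in the alpha, 28 in the beta and 55 in the gamma cluster, and 21, 25 and 50 of them, in that order, overlapped an interval in both replicate lists. Their median widths were 688 bp, 531.5 bp and 934 bp, beside 692 bp over the whole list. All 28 beta peaks were centred within 3 kb after a member TSS, a zone that makes up 25.2% of the cluster. In the alpha cluster 17 of 24 peaks were, in a zone of 15.9%, and in the gamma cluster 31 of 55, in a zone of 34.0%. Over the whole list 8.85% of peaks were centred within 3 kb after a protein-coding TSS. The strongest beta peak reached percentile 80.3 of the authors' signal value in that list, the strongest alpha peak percentile 88.8 and the strongest gamma peak percentile 99.6.

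Between these peaks lay long stretches with none. The longest in the replicated list was 67022 bp in the alpha cluster, between the peaks at Pcdha12 and Pcdhac1, and 58403 bp in the beta cluster, between those at Pcdhb7 and Pcdhb9, against 11920 bp in the gamma cluster. Sequence that occurs more than once in the genome limits what short reads can show there. In the mm9 genome 54.8% of 32-base words sampled between the Pcdha12 and Pcdhac1 TSSs were unique, and 54.4% between the Pcdhb7 and Pcdhb9 TSSs. Over whole clusters 77.8% were unique in alpha, 79.6% in beta and 93.7% in gamma. At the 22 beta TSSs, all of which could be matched to mm9, the median was 93.5% within the 5 kb windows, near the 95% of all genes, with Pcdhb9 lowest at 62%. The part of unique sequence in the coverage differences was not tested.

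The constant ends of the alpha and gamma clusters differed in extent. From the Pcdhgc3 TSS to the end of the gamma genes, coverage was 78.7% in replicate 1 and 81.6% in replicate 2, and from the Pcdhgc5 TSS it was 86.3% and 92.1%. From the Pcdhac2 TSS to the end of the alpha genes it was 18.3% and 18.9%, against 6.88% and 4.22% from the first alpha TSS to Pcdhac1. The widest gamma peak, chr18:37831945-37842212, measured 10268 bp and ran across the shared 3′ end of the gamma genes. The 2 strongest alpha peaks, chr18:37176786-37179451 and chr18:37179515-37181309, ended 9446 and 7588 bp before the last annotated base of the alpha genes. A further alpha peak, chr18:37163933-37166375, ended 22522 bp before it. This end of the alpha cluster is where one of its enhancers is known to reside, and the positions of that enhancer were not looked up here.

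**Figure D4:**
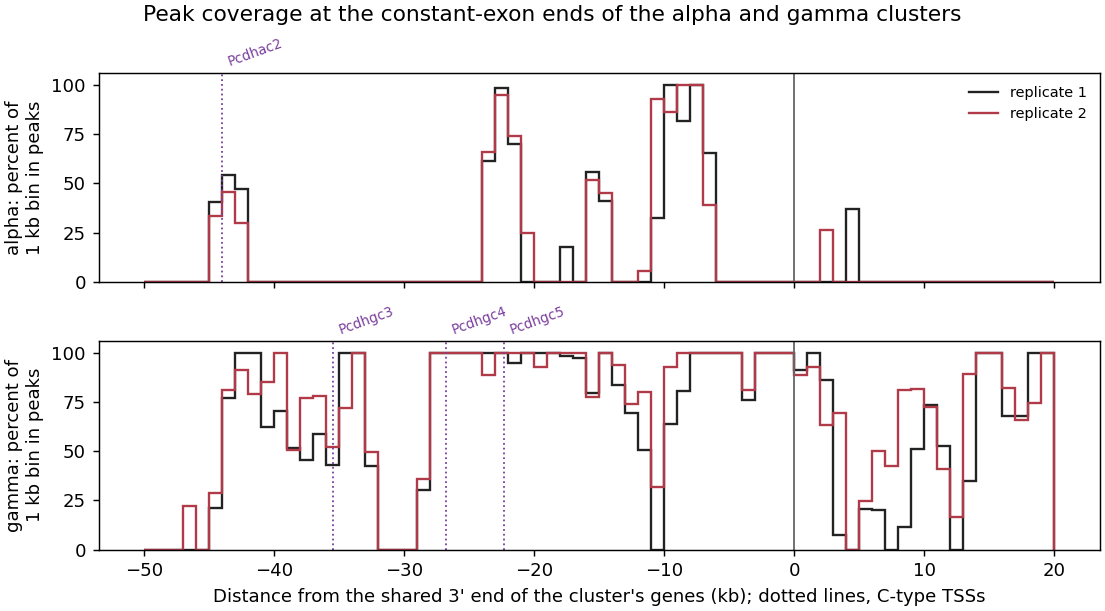
Percent of each 1 kb bin in peaks (y axis) from 50 kb before to 20 kb after the shared 3′ end of the alpha genes (upper panel) and of the gamma genes (lower panel), in kb from that end (x axis), with replicate 1 in black, replicate 2 in red and C-type TSSs as dotted lines. In the alpha panel coverage stands in separate blocks with empty bins before the end itself, and in the gamma panel most bins from Pcdhgc4 onwards are at or near 100%.

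Exons were taken from mm9 gene models and set against the authors' mm9 lists, whose intervals are broader. The 3 shared alpha exons were covered to 0% in both replicates, and so was the intron between exons 1 and 2 of them. The next intron, the last of the constant region, was covered to 37.5% in replicate 1 and 38.3% in replicate 2, which placed the marked blocks of the alpha end in that intron. The 3 shared gamma exons were covered to 100% in both replicates, and the introns between them to 95.1% or more. First exons were covered to 91.6% and 83.1% in the 9 gamma genes matched, 66.3% and 53.0% in the 10 alpha genes and 41.2% and 33.9% in the 22 beta genes. These sets are not alike. The 9 gamma genes had a median coverage of 41.1% on the mm10 lists, against 24.2% for all 21 gamma genes. Median first exon lengths were 2595 bp in gamma, 2394 bp in alpha and 3353.5 bp in beta, where the exon is mostly the whole gene. On the mm9 lists the gamma cluster was again the highest, at 55.7% and 56.6%, with alpha at 12.0% and 10.1% and beta at 12.8% and 10.6%.

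Across genes, Spearman's correlation between the replicates was 0.869 over the 57 members and 0.982 over all 21568 genes, many of which were at 0 in both. It was 0.964 over the gamma, 0.877 over the alpha and 0.553 over the beta members. Replicate 1 was higher in 50 of the 56 members with any coverage (89.3%), against 69.0% of all covered genes, and replicate 2 was higher in 6. The median of replicate 1 minus replicate 2 was 4.66 percentage points over the members, against 0.68 over all genes.

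Genes related by sequence or by layout gave different levels. The 12 non-clustered protocadherins are genes outside the clusters, on several chromosomes. Among them Pcdh1 and Pcdh12 lie on chromosome 18, past the gamma cluster. The 12 had a median coverage of 38.0% in replicate 1 and 26.0% in replicate 2. All 12 had a promoter peak, against 72.8% of all genes. In the list of replicate 2 by itself 10 (83.3%) had one, against 73.2% of all genes. Pcdh1 was the highest at 69.6% ± 1.70, then Pcdh8 at 61.1% ± 0.24, and the lowest were the X-linked genes Pcdh19 at 7.75% ± 4.95 and Pcdh11x at 6.45% ± 9.12. Among 19 classical and related cadherins the medians were 17.0% and 13.7%, and 15 had a promoter peak (78.9%), near the share of all genes. Cdh1, which codes for E-cadherin, had 77.7% ± 0.55 and Cdh3, for P-cadherin, 72.9% ± 6.96, while Cdh13, Cdh18 and Cdh19 were at 0 in both replicates. The Ugt1a genes, a tandem family of glucuronosyltransferases that likewise joins variable first exons to shared ones, had a median of 0% in both. Of these 9 genes 5 (55.6%) were at 0 in both replicates, against 21.6% of all genes, and the highest, Ugt1a2 and Ugt1a6a, had 4.49% ± 0.092 and 4.43% ± 0.45. Errors of single genes are SDs over 2 replicates.

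**Figure D5:**
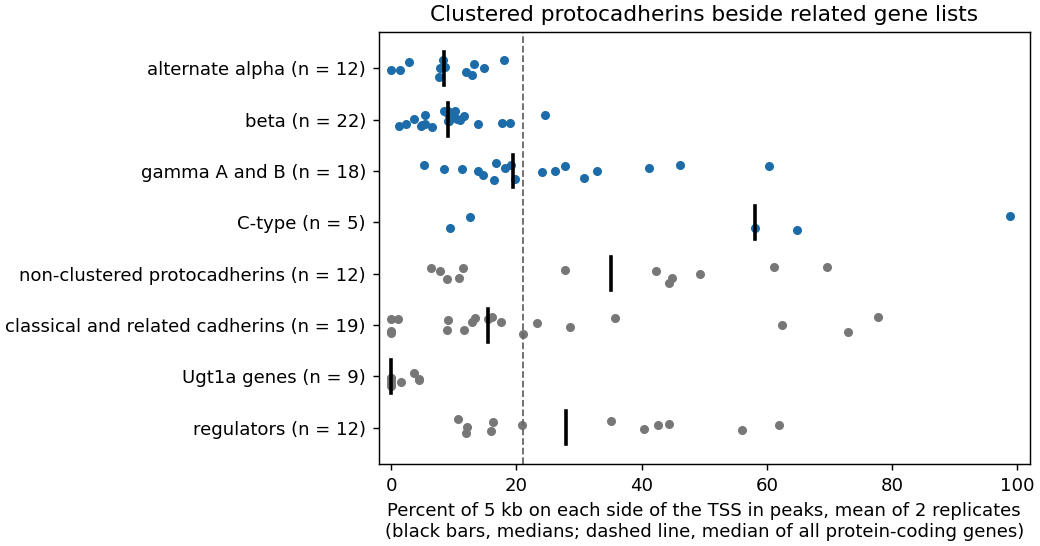
Coverage within 5 kb of the TSS in each direction (percent, mean of 2 replicates, x axis) for single genes of each class of clustered protocadherins in blue and of the comparison lists in grey (y axis), with medians as black bars and the median of all genes, 21.1%, as a dashed line. The 22 beta genes reach at most 24.5%, the C-type genes fall into a low alpha pair and a high gamma trio, and no Ugt1a gene exceeds 4.49%.

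All 12 genes examined next to the clusters had a promoter peak, against 72.8% of all genes and 84.2% of the other genes of chromosome 18. Hars and Hars2 start almost at the same base, and so do Hdac3 and Rell2, so the same peak could count for both genes of a pair. Slc25a2 and Taf7, which lie between the beta and gamma clusters and code for a mitochondrial carrier and a subunit of the general transcription factor TFIID, had 37.3% ± 0.72 and 31.8% ± 0.24. Of the 5 genes before the alpha cluster, Wdr55 was the highest at 52.9% ± 0.65 and Zmat2, the nearest, the lowest at 13.5% ± 0.66. Between Zmat2 and the alpha genes, the 100 kb before the alpha cluster held 0 peaks in every mm10 list. The 100 kb after the gamma cluster, mostly within Diaph1, a formin gene, were covered to 39.6% in replicate 1 and 47.8% in replicate 2. Diaph1 itself had 40.7% ± 5.33 at its TSS and Hdac3, which codes for a histone deacetylase, 44.3% ± 4.16. High coverage thus continued past the last gamma gene.

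The beta promoters also differed from other genes in base composition. Within 500 bp on each side of the TSS in mm9, the 22 beta genes had a median GC content of 41.7% and a median observed to expected CpG ratio of 0.390. All protein-coding genes had 54.8% and 0.549. For the alpha and gamma clusters 10 of 14 and 9 of 21 members could be matched, too few to describe the whole sets. Whether base composition had a part in the coverage was not tested.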

How the data were processed

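H3K4me1 ChIP-seq of 2 biological replicates of E14TG2a.4 cells was analysed as 1 group, without a test between groups. Per the read-me lists, the mm10 files deposited by the authors are narrowPeak lists of each replicate, of the pooled replicates and of replicated peaks, the last derived from both replicate lists and the pooled list. The mm9 files are broadPeak lists. Which aligner and which peak caller made them is not given in the sources used here. For every peak the authors' mm10 lists hold a signal and the −log10 of p and q. The deposited mm9 lists hold a signal with p-values and q-values on a linear scale. Signal was used to rank peaks within a list and −log10 q as a filter. No list gives read counts, so depth is unknown.

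Genes and starts came from RefSeq on GRCm38.p6. Strands, which that table lacks, came from a RefSeq promoter table for 17492 genes and from GENCODE vM1 for 3649 by symbol and 395 by synonym. For 32 members the strand of their cluster was used, because GENCODE vM1 merges most alpha and gamma genes. Left out were 319 of 21887 genes without a strand, which include 3 readthrough genes that span the clusters. Pcdhgb8, not listed as protein-coding, is no member. Overlap counted from 1 bp. Members were matched to mm9 gene models by equal distance from the Pcdhb1 start, within 300 bp, for 41 of 57 (71.9%), so checks of GC content and unique sequence were void for the whole set and are given for the beta genes and for regions. Coordinates were not converted between builds. Unique sequence was measured with words of 32 bases. Interval routines were tested on simulated data. The tools were numba 0.67.0, pandas 2.3.3 and numpy 2.4.6 under Python 3.11.15, with scipy 1.17.1 for correlations and matplotlib 3.10.9 for plots.

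Genes named were the 4 highest and 2 lowest members of each cluster, its first and last member, the C-type genes, the members without a promoter peak, the neighbouring genes, and the 2 highest and 2 lowest of each comparison list, with ties given. Nphs1 and single marker genes were chosen after their values were seen. The members and lists were chosen with earlier results of these data known. Alternatives were other windows, thresholds, lists, overlap rules and cluster ends, and leaving out each replicate.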

Additional observations from a re-analysis of the deposited data

How the results depend on the processing

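With the 50000 strongest peaks of each list, median coverage of the members was 0%, 9 members had a promoter peak, and the clusters were covered to 1.40% (alpha), 0.624% (beta) and 20.5% (gamma). On the mm9 lists, which differ in build, in list type and in the members matched, the median over the 41 matched members was 20.0%, where the same members had 10.6% on mm10, and the clusters were at 11.0% (alpha), 11.7% (beta) and 56.2% (gamma, from the first matched gene on). The pooled list gave 42.0% for gamma. With 1 kb on each side of the TSS 33 members had a promoter peak. Ending a cluster 5 kb after its last TSS gave 4.83% for alpha and 31.8% for gamma, since this leaves out the constant ends. Leaving out each replicate in turn gave 8.35% to 15.0% for the member median, 47 to 53 promoter peaks, 6.11% to 7.79% for alpha, 4.43% to 7.68% for beta and 36.6% to 37.2% for gamma. The gamma cluster was the highest of the 3 under every alternative run. Where an alternative is not said to leave out sequence or peaks, the cause of the shift was not tested. The planned restriction to members with unique sequence was not run, because 71.9% of members had a mm9 start. No paired analysis was possible because the 2 replicates form 1 group and no test was made.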

Other observations

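Among 12 genes whose products are known to act on clustered protocadherin promoters, 12 had a promoter peak, against 72.8% of all genes, and 6 lay above the median coverage of all genes. In the list of replicate 2 by itself 11 (91.7%) had a promoter peak, against 73.2% of all genes. Median coverage of the 12 was 25.8% in each replicate, against 22.3% in replicate 1 and 19.8% in replicate 2 over all genes. Dnmt3b, a DNA methyltransferase, had 61.9% ± 0.47 (SD, n = 2), and Wapl, which releases cohesin from chromatin, 56.0% ± 1.44. The lowest were Stag2, a cohesin subunit, at 12.0% ± 6.10 and Setdb1, a histone H3 lysine 9 methyltransferase, at 10.7% ± 5.35. Ctcf itself, chosen after its values were seen, had 40.4% in replicate 1 and 48.2% in replicate 2.

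The 8 neuron markers listed had a median coverage of 38.0% in replicate 1 and 34.4% in replicate 2, and 7 of them (87.5%) had a promoter peak, against 72.8% of all genes. Tubb3, a neuronal tubulin, had 76.8% in replicate 1 and 73.5% in replicate 2, and Dcx, expressed in young neurons, 0% and 2.72%. Both were chosen after their values were seen. The peak of highest signal value within 100 kb of the clusters was not at a protocadherin: it lay in Diaph1 at chr18:37877532-37880200, with the authors' signal value of 13.4 at percentile 99.8 of the replicated list.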
